A study of Mus musculus with 8 samples.

Results

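The enzymes described here build purine and pyrimidine nucleotides. The 10 genes were chosen by name, and each was read from the row of the deposited array table that carries its name (PPAT, GART, PFAS, PAICS, ATIC, GMPS, CAD, UMPS, CTPS and IMPDH2, written in capitals as in the table for the mouse genes Ppat, Gart and so on). A row was found for 8 of the 10 genes among the 18132 rows, all 8 passed the filter on low values, and PFAS and GMPS were not analysed here. The cells were primary mouse embryonic fibroblasts (MEFs), grown from C57BL/6J embryos at day 13.5 after conception, with 2 arrays in each of 4 groups: Btg1 KO MEFs kept for 16 hours in medium without glutamine, Btg1 KO MEFs left untreated in normal medium, wildtype (WT) MEFs kept for 16 hours without glutamine, and untreated WT MEFs. Btg1 KO cells came from mice that lack Btg1, a gene of the BTG/TOB family. Per the study's methods, normal medium held heat-inactivated fetal bovine serum and a stabilised glutamine source, and the glutamine-free medium held dialyzed serum, so the missing glutamine and the change of serum cannot be told apart. The labels call the 2 arrays of a group biological duplicates and do not name the embryos behind them, so a p-value here measures the spread between these cultures.

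Purine nucleotides are built step by step on a ribose phosphate, and pyrimidine nucleotides from a ring that is made first and joined to the ribose phosphate later. Several of the steps take the amide nitrogen of glutamine. Among the purine enzymes, PPAT takes it in the first committed step, PFAS in a later step towards the ring, and GMPS in the last step to GMP. Among the pyrimidine enzymes, CAD takes it to make carbamoyl phosphate, and CTPS takes it to turn UTP into CTP. GART, PAICS, ATIC, UMPS and IMPDH2 carry out steps that take no nitrogen from glutamine. Thus 3 of the 5 glutamine steps (PPAT, CAD and CTPS) and all 5 of the others were measured. Cells that divide need these nucleotides for DNA and RNA.

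The values are log2 expression levels from Illumina bead arrays, normalised by the authors. The median of all rows on an array lay between 3.78 and 3.81, and replicate arrays of a group correlated at r = 0.984 to 0.988 across all rows. The BTG1 row measured 10.40 and 10.45 in starved and 9.36 and 9.16 in untreated Btg1 KO cells, against 12.40 and 12.40 in starved and 11.17 and 11.23 in untreated WT cells. It was thus lower in Btg1 KO cells but not near the filter level of 3, and whether its probe lies in the part removed by the knockout is unknown here. The Y-linked row EIF2S3Y stood at 9.81 and 9.49 on the WT replicate 2 arrays and 1.94 to 3.25 on the other 6 arrays and XIST, expressed from the inactive X chromosome, measured 2.87 and 3.48 against 6.91 to 7.98, so only that pair of arrays showed Y-linked RNA. Among the markers of cell types, the fibroblast list had a median of 8.78 to 9.65 on all 8 arrays, and the endothelial list 2.64 to 3.69. The epithelial list had a median of 4.16 to 5.61, and its part in the members' levels was not tested. Single fibroblast markers moved with the conditions. Of 10, 4 were called lower with starvation in Btg1 KO cells (median log2 change -0.62), beside 7.24% of all rows. In WT cells 7 were called lower (median -1.13), beside 11.6% of all rows. In Btg1 KO minus WT cells 3 of the 10 were called higher with starvation (median 0.64), beside 1.61% of all rows. None was called without it (median 0.25), beside 0.386% of all rows higher. The 3 calls, COL1A1, COL3A1 and PDGFRB, were lost in 4, 6 and 6 of the 8 fits with 1 array left out. PDGFRA alone was below 0 in starved cells, at -1.07. The part of the fibroblast markers in the members' levels was not tested. Markers of macrophages had a median of 7.71 and 8.19 on the starved and untreated arrays of Btg1 KO replicate 1, 6.12 and 6.36 on those of Btg1 KO replicate 2, and 5.15 to 5.77 on the 4 WT arrays. One of these markers, FCER1G, went the other way, with 2.13 and 2.35 on the starved and untreated Btg1 KO replicate 1 arrays and 7.26 to 7.69 on the other 6. Several results that rest on Btg1 KO replicate 1 are therefore also given without it.

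Levels of the purine enzymes were read first. PPAT measured 9.10 and 9.14 in starved and 8.73 and 9.08 in untreated Btg1 KO cells, against 9.24 and 9.26 in starved and 9.49 and 9.38 in untreated WT cells. All 4 Btg1 KO arrays lay below all 4 WT arrays, and the lowest was the untreated Btg1 KO replicate 1. GART, a trifunctional enzyme that follows PPAT, measured 9.08 and 9.12 in starved and 8.97 and 9.32 in untreated Btg1 KO cells, against 9.34 and 9.30 in starved and 9.47 and 9.50 in untreated WT cells. Both Btg1 KO means lay below both WT means. Starved and untreated arrays overlapped in Btg1 KO cells, where the untreated replicate 2 array lay between the 2 starved WT arrays.

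PAICS, a bifunctional enzyme of the middle of the pathway, measured 6.63 and 6.88 in starved and 6.30 and 6.15 in untreated Btg1 KO cells, against 6.05 and 6.55 in starved and 7.03 and 6.80 in untreated WT cells. Within each genotype its starved and untreated arrays did not overlap, and they stood in opposite orders: starved arrays were the higher ones in Btg1 KO cells and the lower ones in WT cells. ATIC, which carries out the last steps to IMP, measured 7.68 and 7.77 in starved and 7.69 and 7.89 in untreated Btg1 KO cells, against 7.81 and 7.92 in starved and 7.83 and 8.15 in untreated WT cells. Starved and untreated arrays overlapped in both genotypes. IMPDH2, which turns IMP towards the guanine nucleotides, measured 12.23 and 12.47 in starved and 12.08 and 12.21 in untreated Btg1 KO cells, against 12.42 and 12.41 in starved and 12.48 and 12.29 in untreated WT cells. Its lowest arrays were the untreated Btg1 KO ones.

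PPAT and PAICS are neighbours: the mouse annotation places them head to head on opposite strands of chromosome 5, and their annotated 5′ ends overlap by 277 bases. The positions of their probes were not known here. Their promoters are shown because both genes had their lowest mean in untreated Btg1 KO cells, and both had starved arrays above the untreated ones in Btg1 KO cells and below them in WT cells. CAD, UMPS and IMPDH2 also had their lowest mean in untreated Btg1 KO cells, but not the opposite orders. For PPAT the order in Btg1 KO cells was narrow, with starved arrays at 9.10 and 9.14 and the untreated replicate 2 array at 9.08. Each window runs from 250 bases before to 50 bases after the annotated start (RefSeq, GRCm38.p6), PPAT at chr5:76951529-76951828 on the minus strand and PAICS at chr5:76951052-76951351 on the plus strand, and capitals mark CACGTG, the palindromic E-box that MYC and MAX bind.
PPAT: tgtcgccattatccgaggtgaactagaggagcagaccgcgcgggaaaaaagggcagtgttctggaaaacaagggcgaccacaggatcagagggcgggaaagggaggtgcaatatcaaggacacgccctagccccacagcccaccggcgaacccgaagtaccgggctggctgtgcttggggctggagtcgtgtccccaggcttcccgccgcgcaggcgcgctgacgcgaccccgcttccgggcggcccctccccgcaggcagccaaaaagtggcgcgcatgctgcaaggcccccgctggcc
PAICS: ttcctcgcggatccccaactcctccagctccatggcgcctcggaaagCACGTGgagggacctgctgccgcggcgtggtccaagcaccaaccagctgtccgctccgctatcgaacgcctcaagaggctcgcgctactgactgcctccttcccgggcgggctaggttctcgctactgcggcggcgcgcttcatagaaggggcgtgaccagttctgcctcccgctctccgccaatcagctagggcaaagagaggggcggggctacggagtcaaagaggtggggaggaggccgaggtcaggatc
The E-box was found in 3 of the 8 measured members, PAICS, ATIC and IMPDH2, where 7.15% of the 32851 windows of this length in the annotation hold it. Its first base lies at position -203 from the start in PAICS, at -7 in ATIC and at -110 in IMPDH2, and the stretches around the last 2 are from chr1:71557129-71557174 and chr9:108560306-108560351, both on the plus strand.
ATIC: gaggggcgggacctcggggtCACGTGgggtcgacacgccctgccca
IMPDH2: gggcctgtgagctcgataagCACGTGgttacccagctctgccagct
TGATGNAA, searched on both strands as the composite element that ATF4 binds, was in none of the 8 members' windows and in 3.97% of all windows. These are matches of letters in short windows, and binding was not measured here.

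The pyrimidine enzymes are few. CAD, a single large protein that starts the pathway, measured 6.85 and 7.51 in starved and 6.86 and 7.34 in untreated Btg1 KO cells, against 7.17 and 7.58 in starved and 7.54 and 7.64 in untreated WT cells. Its replicates were the widest apart of the 8 genes, with replicate 1 the lower one in all 4 groups. UMPS, which completes UMP, measured 7.45 and 7.65 in starved and 6.94 and 7.49 in untreated Btg1 KO cells, against 8.10 and 8.001 in starved and 7.80 and 7.72 in untreated WT cells. All 4 WT arrays were above all 4 Btg1 KO arrays. CTPS measured 11.29 and 11.31 in starved and 11.41 and 11.43 in untreated Btg1 KO cells, against 11.45 and 11.29 in starved and 11.62 and 11.51 in untreated WT cells. Its highest arrays were the untreated WT ones.

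**Figure D1:**
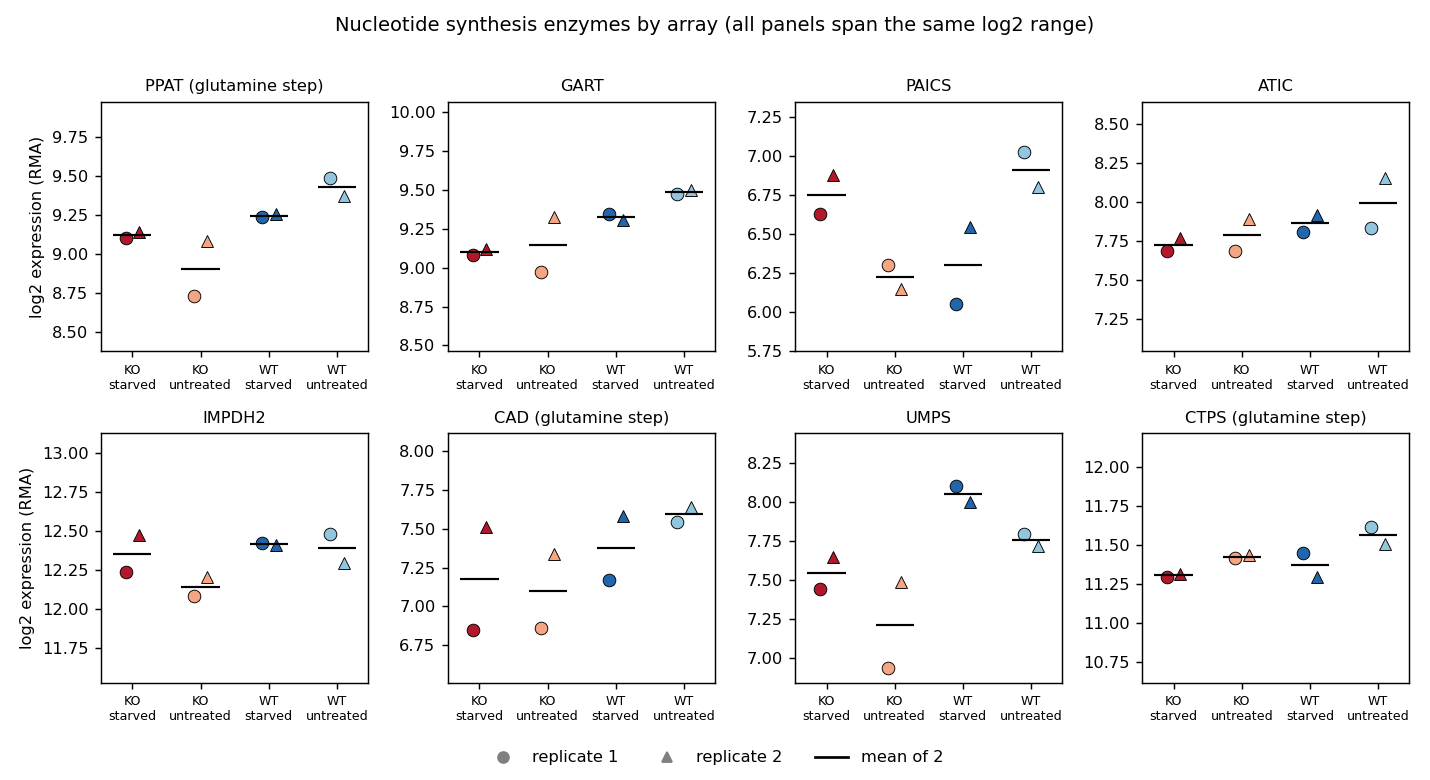
Log2 expression (RMA) of the 8 measured genes on each of the 8 arrays, by group, with circles for replicate 1, triangles for replicate 2 and a bar for the mean of both. Every panel spans the same range, so the wide spread of CAD and PAICS and the narrow one of CTPS can be compared, and UMPS and PPAT have all Btg1 KO points below the WT points.

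The first question was how the enzymes answered 16 hours without glutamine. In Btg1 KO cells none of the 8 genes was called (adjusted p under 0.05, limma), where 7.24% of the 12691 rows tested were lower and 8.44% higher. In WT cells again none of the 8 passed, where 11.6% of rows were lower and 13.1% higher. The median log2 change of the 8 genes was 0.14 in Btg1 KO cells and -0.17 in WT cells, beside 0.03 over all rows in each genotype. The Btg1 KO median rests on single arrays: it was -0.05 without the untreated replicate 1 array and 0.11 without both replicate 1 arrays. Without regard to sign the members' median change was 0.17 in Btg1 KO and 0.19 in WT cells, beside 0.34 and 0.40 over all rows. A p that misses the threshold does not show that a gene kept its level, so the intervals are given.

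In Btg1 KO cells the starvation change of PPAT was 0.22 (95% interval -0.08 to 0.51, adjusted p = 0.328 from limma) and in WT cells it was -0.18 (-0.48 to 0.11, adjusted p = 0.369). PAICS had the largest change of the 8 in each genotype, 0.53 in Btg1 KO cells (0.01 to 1.04, unadjusted p = 0.0467, adjusted p = 0.166 from limma) and -0.61 in WT cells (-1.13 to -0.10, unadjusted p = 0.0248, adjusted p = 0.0852). It was the only member under an unadjusted p of 0.05 in either genotype. Of all rows, 15.4% were higher at that level in Btg1 KO cells and 16.5% lower in WT cells. Under a stricter filter, which tested only rows averaging at least 5 in every group, its WT change passed with an adjusted p of 0.0470 from limma. Under that filter 2935 of the 6885 rows tested were called in WT cells, so such a call was common. UMPS gave a change of 0.33 in Btg1 KO cells (-0.10 to 0.77, adjusted p = 0.301 from limma) and of 0.29 in WT cells (-0.14 to 0.73, adjusted p = 0.328). Without the untreated Btg1 KO replicate 1 array the Btg1 KO change of PPAT was 0.04 and that of UMPS 0.06. In that fit 4 of the 8 genes were below 0 in Btg1 KO cells.

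CTPS gave a change of -0.12 in Btg1 KO cells (-0.32 to 0.08) and -0.19 in WT cells (-0.39 to 0.01). IMPDH2 gave 0.21 in Btg1 KO cells (-0.03 to 0.45) and 0.03 in WT cells (-0.21 to 0.27). For GART the change was -0.05 in Btg1 KO cells (-0.34 to 0.24) and -0.16 in WT cells (-0.45 to 0.13). ATIC and CAD lay between -0.06 and 0.08 in Btg1 KO cells and between -0.22 and -0.13 in WT cells, with the interval of CAD reaching from -0.50 to 0.65 in Btg1 KO and from -0.79 to 0.36 in WT cells. Adjusted p-values of CTPS, IMPDH2, GART, ATIC and CAD were 0.166 or more from limma.

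Counted by array order, starved Btg1 KO arrays were all above the untreated ones for 3 genes (PPAT, PAICS and IMPDH2), all below for CTPS, and overlapped for 4. Of all rows, 29.6% had every starved array above and 25.5% had every one below. In WT cells the starved arrays were all below for 4 genes (PPAT, GART, PAICS and CTPS), all above for UMPS, and overlapped for 3. There 29.6% of all rows had every starved array below and 33.4% had every one above. With 2 arrays against 2 such an order is common among all rows.

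**Figure D2:**
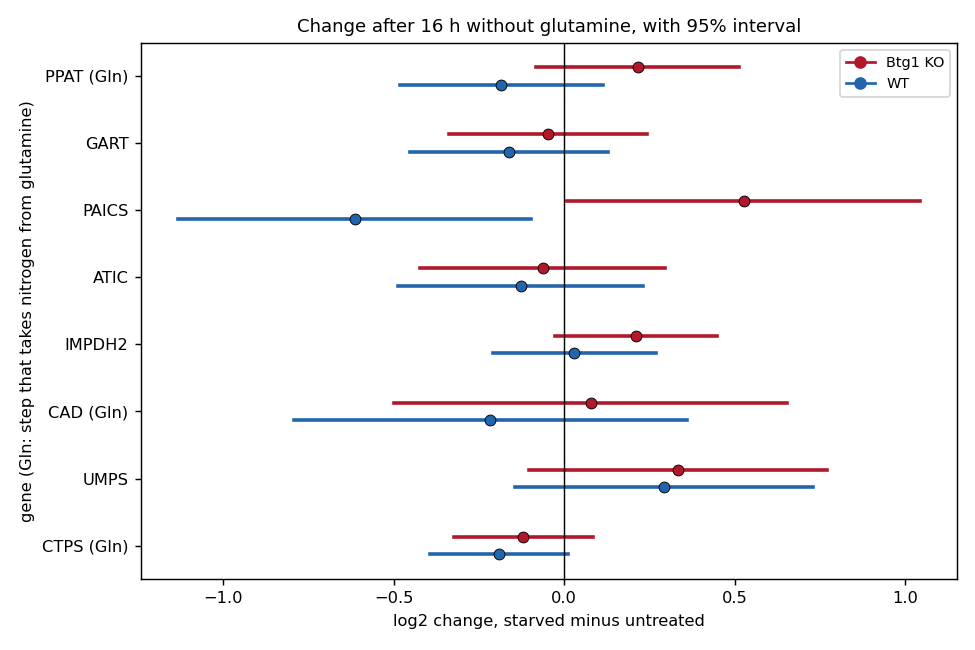
Log2 change after 16 hours without glutamine, starved minus untreated, with the 95% interval from limma (horizontal axis) for each of the 8 genes (vertical axis), Btg1 KO in red above WT in blue. Gln marks a step that takes nitrogen from glutamine, and PAICS, at 0.53 in Btg1 KO and -0.61 in WT cells, has the points farthest apart.

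The second question was how Btg1 KO cells differed from WT cells. Without starvation, all 8 genes had a lower mean in Btg1 KO cells, with a median difference of -0.41 beside -0.02 over all rows, of which 52.1% were below 0. None of the 8 was called by limma at an adjusted p under 0.05, where 0.276% of all rows were lower and 0.386% higher, so few rows of any kind were called. At an unadjusted p under 0.05, 5 of the 8 were lower (PPAT, GART, PAICS, UMPS and IMPDH2), where 8.69% of all rows were lower. For 7 of the 8 genes, all but ATIC, both untreated Btg1 KO arrays lay below both untreated WT arrays, where 25.3% of all rows did so.

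PAICS had the largest of these differences, -0.69 (95% interval -1.20 to -0.17, adjusted p = 0.169 from limma), a level in Btg1 KO cells of 0.621 times that in WT cells. UMPS differed by -0.55 (-0.98 to -0.11, adjusted p = 0.192 from limma) and PPAT by -0.53 (-0.82 to -0.23, unadjusted p = 0.00294, adjusted p = 0.0978). CAD, whose replicates were far apart, gave -0.49 (-1.07 to 0.09, adjusted p = 0.362 from limma). GART gave -0.34 (-0.63 to -0.05), IMPDH2 -0.24 (-0.48 to -0.01), ATIC -0.20 (-0.56 to 0.16) and CTPS -0.14 (-0.34 to 0.07).

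A single library weighed on these values. On the untreated Btg1 KO replicate 1 array all 8 genes were below their own mean over the 8 arrays, with a median of -0.27, and on the untreated Btg1 KO replicate 2 array 4 of 8 were, with a median of -0.04. On each of the 2 untreated WT arrays 1 of 8 was below, with medians of 0.20 and 0.22. When both Btg1 KO replicate 1 arrays were left out, all 8 differences stayed below 0 but the median was -0.22, PPAT was -0.35, UMPS -0.27, CAD -0.25 and GART -0.16, while PAICS was -0.76. None was called then. With the untreated Btg1 KO replicate 2 array left out instead, PPAT was -0.70 and UMPS -0.82. In that fit the array with the highest macrophage markers stands alone for untreated Btg1 KO cells. The part of macrophages in the members' levels was not tested, and in such bulk RNA fewer cells of a type and less RNA per cell cannot be told apart.

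After starvation the genotype means lay closer for most members. This change, the difference in response tested below, passed for none of the 8 and rested partly on the untreated Btg1 KO replicate 1 array. The median Btg1 KO minus WT difference was -0.13, beside -0.03 over all rows, with 7 of 8 genes below 0. By limma none was called at an adjusted p under 0.05, where 0.638% of all rows were lower and 1.61% higher. For 4 of the 8 (PPAT, GART, ATIC and UMPS) both starved Btg1 KO arrays lay below both starved WT arrays, where 27.3% of all rows did so. For PAICS both lay above, where 22.1% of all rows did so. UMPS differed by -0.50 (95% interval -0.94 to -0.07, unadjusted p = 0.0280, adjusted p = 0.228 from limma). It was the only member under an unadjusted p of 0.05, where 8.34% of all rows were lower. PAICS stood alone above 0, at 0.45 (-0.06 to 0.97, adjusted p = 0.366 from limma). PPAT gave -0.13 (-0.42 to 0.17), GART -0.22 (-0.52 to 0.07), and the other 4 lay between -0.20 and -0.06. Without the starved Btg1 KO replicate 1 array the median was -0.07 and 5 of 8 genes were below 0, with CAD at 0.13, IMPDH2 at 0.05 and PAICS at 0.58 above it.

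**Figure D3:**
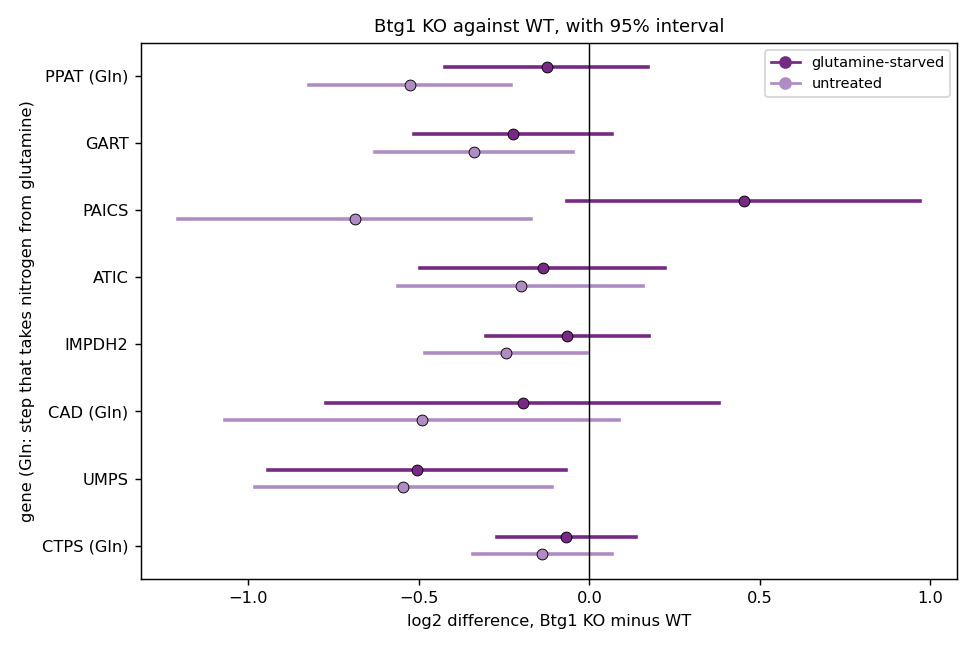
Log2 difference of Btg1 KO minus WT cells with the 95% interval from limma (horizontal axis) for the 8 genes (vertical axis), glutamine-starved cells in dark purple above untreated cells in light purple. All 8 untreated points lie left of 0, and PAICS alone has its starved point to the right, at 0.45.

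The third question was whether the response to starvation differed between the genotypes. The difference in response, the change in Btg1 KO cells minus the change in WT cells, was above 0 for all 8 genes, with a median of 0.15. Over all rows the median was -0.00. None of the 8 passed, with adjusted p-values of 0.708 or more from limma, and 0% of all rows were called lower and 0% higher in this comparison (the smallest adjusted p of any row was 0.232). PAICS had 1.14 (95% interval 0.41 to 1.87, unadjusted p = 0.00622, adjusted p = 0.708 from limma) and PPAT 0.40 (-0.02 to 0.82, unadjusted p = 0.0599, adjusted p = 0.775). In the other 6 genes it lay between 0.04 (UMPS) and 0.30 (CAD). At an unadjusted p under 0.05 only PAICS of the 8 was called, where 6.42% of all rows were. The common sign rests on single arrays: with 1 array left out in turn, 0 to 3 of the 8 genes were below 0. Without the untreated Btg1 KO replicate 1 array the median was 0.06, and 3 of 8 genes were below 0, GART at -0.06, ATIC at -0.04 and UMPS at -0.24. Without both Btg1 KO replicate 1 arrays the median was 0.15 with 2 below 0 (GART at -0.05 and UMPS at -0.14), PAICS gave 1.34 (unadjusted p = 0.0108) and PPAT 0.24. Without the starved Btg1 KO replicate 2 array it was 0.06 with 2 below 0, CAD at -0.03 and UMPS at -0.06. These differences use the same 8 arrays as the genotype comparisons, and the low untreated Btg1 KO values enter both.

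Steps that take nitrogen from glutamine were set beside those that do not. In Btg1 KO cells the 3 glutamine steps (PPAT, CAD and CTPS) had a median starvation change of 0.08, from -0.12 to 0.22, and the 5 others a median of 0.21, from -0.06 to 0.53. In WT cells the glutamine steps had a median of -0.19, from -0.22 to -0.18, and the others -0.13, from -0.61 to 0.29. Both ranges overlapped in each genotype. Without starvation the Btg1 KO minus WT medians were -0.49 for the glutamine steps, from -0.53 to -0.14, and -0.34 for the others, from -0.69 to -0.20. These ranges overlapped too. The -0.49 is the value of CAD, which was -0.25 without both Btg1 KO replicate 1 arrays. A test between 3 and 5 genes was not made, since genes are not replicates of a condition.

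**Figure D4:**
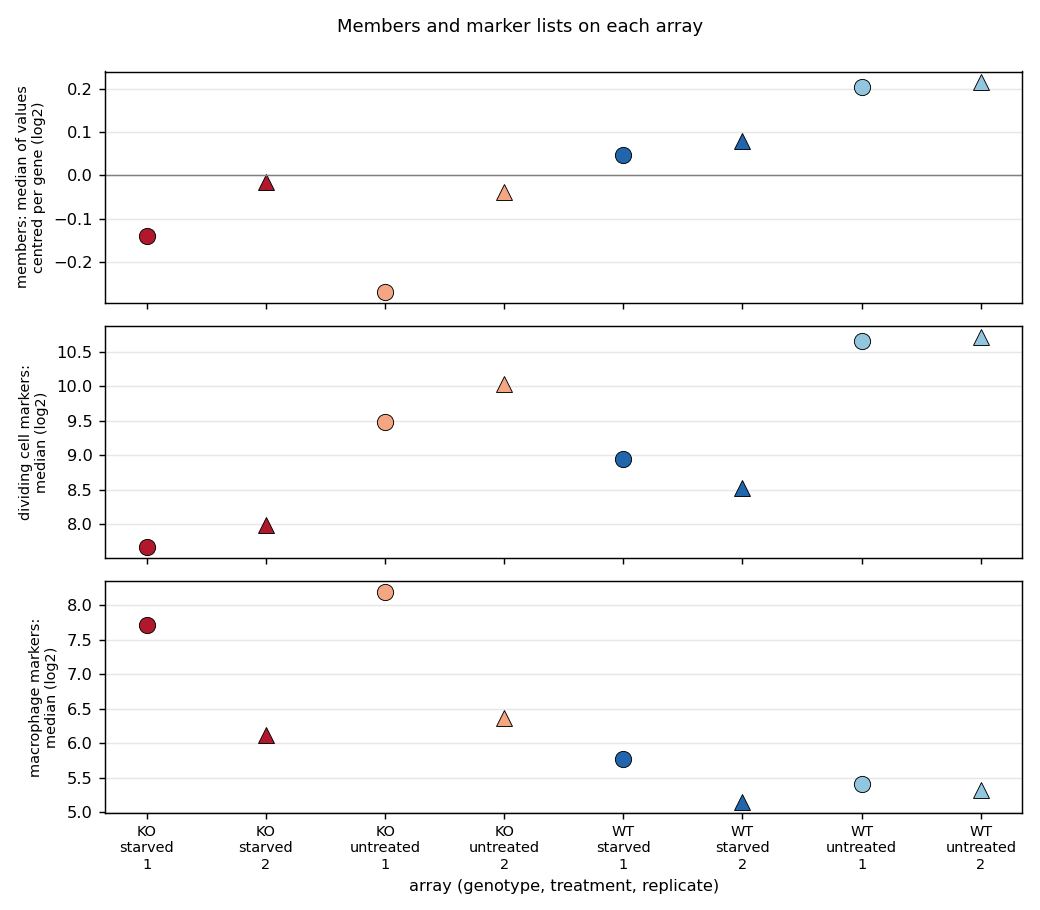
Median of the 8 genes, each centred on its own mean over the 8 arrays (top, log2), and median log2 level of the dividing cell markers (middle) and macrophage markers (bottom) on each array (horizontal axis: genotype, treatment and replicate). The members are lowest on the untreated Btg1 KO replicate 1 array, at -0.27, where the macrophage markers are highest, at 8.19.

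Markers of dividing cells moved far more than the enzymes. Their median level was 7.67 and 7.99 in starved and 9.49 and 10.03 in untreated Btg1 KO cells, against 8.94 and 8.52 in starved and 10.66 and 10.71 in untreated WT cells. Of the 8 markers tested, 7 were called lower with starvation in Btg1 KO cells (median log2 change -1.80), beside 7.24% of all rows. The other one, CDC2A, gave -1.14 (adjusted p = 0.0619 from limma). In WT cells all 8 were called lower (median -1.78), beside 11.6% of all rows. PLK1, a kinase of mitosis, fell by 2.34 in Btg1 KO cells (adjusted p = 4.11e-05 from limma) and by 2.36 in WT cells (adjusted p = 1.88e-05). Between genotypes the median Btg1 KO minus WT difference of these markers was -0.74 without starvation, with none of 8 called (0.276% of all rows lower). With starvation it was -0.82 (0.638% of all rows called lower), with only PLK1 called (-0.72, adjusted p = 0.0490 from limma). That last call was lost in 6 of the 8 fits with 1 array left out, with an adjusted p of up to 0.394 without WT glutamine-starved replicate 1. Their part in the members' levels was not tested.

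The macrophage list was measured with all 10 markers. In untreated cells its median Btg1 KO minus WT difference was 2.00, with 8 of 10 above 0 and none called (0.386% of all rows higher). In starved cells it was 1.56, with 8 of 10 above 0 and 1 called (1.61% of all rows higher). The called marker was C1QB, a complement component that macrophages make (2.97, adjusted p = 0.0488 from limma). C1QB measured 9.96 and 8.23 in starved and 10.36 and 8.36 in untreated Btg1 KO cells, against 6.08 and 6.18 in starved and 7.06 and 6.62 in untreated WT cells. Its call was lost in 6 of the 8 fits with 1 array left out. The 2 markers below 0 were FCER1G, an Fc receptor subunit (-2.54 starved and -2.33 untreated, adjusted p = 0.519 and 0.530 from limma), and ITGAM, an integrin (-0.63 starved and -0.02 untreated, adjusted p = 0.442 and 0.986).

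Other enzymes of nucleotide metabolism were counted from named lists. Of 9 tested enzymes that complete the 2 synthesis pathways, none was called with starvation in Btg1 KO cells and 2 rose in WT cells, beside 7.24% of all rows lower and 8.44% higher in Btg1 KO cells and 11.6% lower and 13.1% higher in WT cells. PRPSAP2, a protein bound to the enzyme that makes the ribose phosphate donor, gave 0.82 in Btg1 KO cells (adjusted p = 0.0854 from limma) and rose by 1.02 in WT cells (adjusted p = 0.0260). DHODH, the mitochondrial pyrimidine enzyme between CAD and UMPS, gave 0.47 in Btg1 KO cells (adjusted p = 0.0634 from limma) and rose by 0.51 in WT cells (adjusted p = 0.0321). Both WT calls were lost in 4 of the 8 fits with 1 array left out, at an adjusted p of up to 0.178 for PRPSAP2 (without WT glutamine-starved replicate 1) and 0.181 for DHODH (without WT untreated replicate 1). PRPS1, which makes the ribose phosphate donor that PPAT uses, measured 10.27 and 10.35 in untreated Btg1 KO cells, against 11.02 and 11.16 in untreated WT cells. It was the only one of the 9 called between genotypes (-0.78, adjusted p = 0.0400 from limma, where 0.276% of all rows were lower), a call lost in 3 of the 8 such fits, at an adjusted p of up to 0.196 without Btg1 KO untreated replicate 1.

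Salvage enzymes, which reuse free bases and nucleosides, moved in both directions. Of 10 tested, 2 fell and 4 rose in Btg1 KO cells (over all rows 7.24% and 8.44%), and 2 fell and 5 rose in WT cells (over all rows 11.6% and 13.1%). TK1, the thymidine kinase of dividing cells, measured 4.40 and 5.01 in starved and 6.23 and 6.86 in untreated Btg1 KO cells, against 4.65 and 4.62 in starved and 7.65 and 7.53 in untreated WT cells. It fell by 1.85 in Btg1 KO cells (adjusted p = 0.00338 from limma) and by 2.95 in WT cells (adjusted p = 0.000137), and the 4 starved arrays reached like levels in the 2 genotypes. TK2, its mitochondrial counterpart, rose by 0.87 in Btg1 KO cells (adjusted p = 0.00354 from limma) and by 1.10 in WT cells (adjusted p = 0.000486).

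UPP1, which frees uracil from uridine, measured 3.90 and 4.70 in starved and 2.62 and 3.02 in untreated Btg1 KO cells, against 5.91 and 5.03 in starved and 2.63 and 2.99 in untreated WT cells. Its untreated means lay under the filter level of 3. From 3 to the starved mean the rise was 2.47-fold in Btg1 KO cells and 5.54-fold in WT cells. These figures can understate the rise and leave out the spread of the starved arrays. The fitted log2 change was 1.48 in Btg1 KO cells (95% interval 0.52 to 2.45, adjusted p = 0.0454 from limma). In WT cells it was 2.66 (1.69 to 3.63, adjusted p = 0.00168 from limma). UPRT, named as a uracil salvage gene, rose by 1.599 in Btg1 KO cells (adjusted p = 0.0375 from limma) and by 1.47 in WT cells (adjusted p = 0.0372). It measured 4.59 and 5.33 in starved and 2.80 and 3.92 in untreated Btg1 KO cells, against 5.64 and 5.78 in starved and 4.54 and 3.95 in untreated WT cells. With 1 untreated Btg1 KO array under the filter level of 3, the size of the rise in Btg1 KO cells is uncertain. Leaving out 1 array lost the UPP1 call in Btg1 KO cells in 7 of 8 fits (adjusted p up to 0.246, without Btg1 KO glutamine-starved replicate 2) and the UPRT calls in 5 of 8 fits in Btg1 KO cells (up to 0.213, the same array) and in 4 of 8 in WT cells (up to 0.193, without WT untreated replicate 2). ADK, adenosine kinase, was named after its values were seen as the second gene that fell, by 0.46 in Btg1 KO cells (adjusted p = 0.0117 from limma, up to 0.0832 without Btg1 KO glutamine-starved replicate 1) and by 0.73 in WT cells (adjusted p = 0.000554).

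Of 7 tested enzymes that make deoxynucleotides, 2 fell and 1 rose in Btg1 KO cells (over all rows 7.24% and 8.44%), and 4 fell and 1 rose in WT cells (over all rows 11.6% and 13.1%). RRM2, the regulated subunit of ribonucleotide reductase, measured 7.38 and 7.47 in starved and 8.96 and 9.45 in untreated Btg1 KO cells, against 7.90 and 7.66 in starved and 9.87 and 10.10 in untreated WT cells. It fell by 1.78 in Btg1 KO cells (adjusted p = 0.000372 from limma) and by 2.20 in WT cells (adjusted p = 4.91e-05). RRM1, the large subunit, fell by 1.15 in Btg1 KO cells (adjusted p = 0.00214 from limma) and by 1.25 in WT cells (adjusted p = 0.000704). TYMS and DUT, which make and guard the thymidylate supply, gave -0.45 and -0.22 in Btg1 KO cells (adjusted p = 0.429 and 0.585 from limma). In WT cells both fell, TYMS by 1.05 (adjusted p = 0.0468 from limma) and DUT by 0.78 (adjusted p = 0.0327). The TYMS call was lost in all 8 fits with 1 array left out and the DUT call in 3 of 8, at adjusted p up to 0.172 (without WT glutamine-starved replicate 2) and 0.217 (without WT glutamine-starved replicate 1). The gene that rose in both was DCTD, a deaminase of dCMP, named after its values were seen, by 0.45 in Btg1 KO cells (adjusted p = 0.0231 from limma) and by 0.39 in WT cells (adjusted p = 0.0259). Leaving out 1 array lost its call in 3 and 4 of 8 fits. DTYMK, the thymidylate kinase, was also named after its values were seen. It was the only one of the 7 called between genotypes, at -0.57 in starved cells (adjusted p = 0.0490 from limma), beside 0.638% of all rows lower. This call was lost in 6 of 8 such fits.

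Folate enzymes supply the one-carbon units that GART and ATIC use. Of 4 tested, 2 rose in each genotype, where 8.44% of all rows rose in Btg1 KO and 13.1% in WT cells. SHMT2, which splits serine in mitochondria, measured 9.19 and 9.30 in starved and 7.996 and 8.15 in untreated Btg1 KO cells, against 9.67 and 9.58 in starved and 8.43 and 8.08 in untreated WT cells. The rise was 1.17 in Btg1 KO cells (adjusted p = 0.00097 from limma) and 1.37 in WT cells (adjusted p = 0.000159). MTHFD2, the next mitochondrial enzyme, rose by 0.48 in Btg1 KO cells (adjusted p = 0.0220 from limma, up to 0.137 without Btg1 KO glutamine-starved replicate 1) and by 0.67 in WT cells (adjusted p = 0.00266). Of the 7 nucleotide kinases, which turn monophosphates into di- and triphosphates, none was called in Btg1 KO cells and 2 fell in WT cells, where 11.6% of all rows fell, CMPK by 0.60 (adjusted p = 0.00212 from limma) and AK1 by 0.52 (adjusted p = 0.0170, up to 0.137 without WT glutamine-starved replicate 1). In Btg1 KO cells the same genes gave -0.26 and -0.30 (adjusted p = 0.121 and 0.164 from limma).

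Among factors known to act on nucleotide genes, ATF4, the transcription factor of amino acid stress, rose by 0.80 in Btg1 KO cells (adjusted p = 0.00200 from limma) and by 0.90 in WT cells (adjusted p = 0.000486). MYC, a known activator of nucleotide synthesis genes, measured 4.36 and 4.72 in starved and 4.31 and 4.02 in untreated Btg1 KO cells, against 4.71 and 4.81 in starved and 4.30 and 4.09 in untreated WT cells. Its change was 0.38 in Btg1 KO cells (adjusted p = 0.486 from limma) and 0.56 in WT cells (adjusted p = 0.238). None of the genes in these lists was called for a difference in response between the genotypes, where 0% of all rows were.

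**Figure D5:**
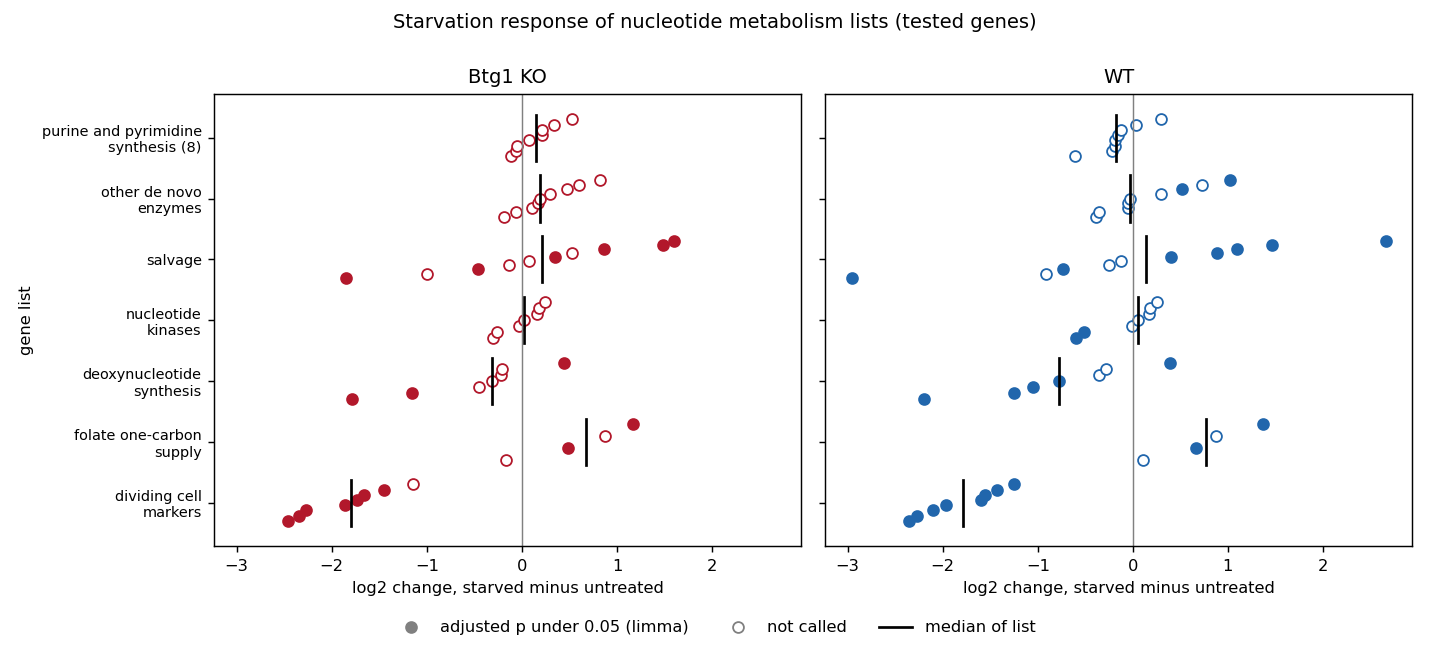
Log2 change after 16 hours without glutamine, starved minus untreated (horizontal axis), for the tested genes of each list (vertical axis), Btg1 KO on the left and WT on the right. Filled points passed an adjusted p of 0.05 from limma, open points did not, and bars mark list medians: all 8 synthesis enzymes are open in both genotypes, while the deoxynucleotide and salvage lists hold filled points on both sides of 0.

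The 8 genes did not share one profile closely. Each was set against the mean profile of all 8, centred over the 8 arrays. PPAT lay nearest, with a root mean square difference of 0.07 on the log2 scale, and PAICS and UMPS farthest, with 0.27 and 0.24. Among rows that are no member, METAP1, MAGOHB, GRAMD4, DRG1 and SMARCD2 were the 5 nearest to the mean profile over the 8 arrays, with differences of 0.055 to 0.069. METAP1, a methionine aminopeptidase, averaged 10.48 in starved and 10.38 in untreated Btg1 KO cells, against 10.67 in starved and 10.70 in untreated WT cells.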

How the data were processed

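RNA of 8 cultures was labelled and hybridised to Illumina MouseRef-8 v2 arrays, and per the labels and methods the authors extracted the data with GenomeStudio 2011.1 and normalised them with the RMA method in ArrayStar. The deposited values used here are on the log2 scale, 1 per named row and array. RMA sets the arrays to 1 common distribution, so a change shared by most genes would not be seen, and values near the background level of 3 in the methods understate fold changes. Another deposited table gives means and ratios per group, and its means differed from those computed here by at most 5.0e-06 over 18117 shared rows. Its ratios were not used. Probes behind a row and detection p-values were not analysed here.

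A row was kept where 1 or more groups averaged at least 3, which left 12691 of 18132. In R 4.3.3, limma 3.58.1 fitted the means of the 4 groups to all 8 arrays, with a prior variance that follows intensity (degrees of freedom: 4 residual, 5.48 prior). Two-sided p-values were adjusted over these rows (Benjamini-Hochberg), and a gene was called under an adjusted p of 0.05. The 2 comparisons of genotype, the 2 responses to starvation and the difference in response were taken from this fit. The members, lists, tests and alternatives were chosen with earlier results of these data known. All members were named, and from each list up to 4 genes, called ones first by size of change. Beyond that rule ADK, DCTD, DTYMK and the cell markers were named after their values were seen. On simulated data for the response of WT cells over 12691 rows, limma called 4, 17, 36 and 45 of 50 genes made to change by 0.5, 1, 2 and 3 on the log2 scale. No other rows were made to change there, whereas 3138 rows were called in the real response of WT cells. The adjusted threshold was thus stricter in the simulation, and its counts do not give the recovery in these data. The alternatives were other filters, scalings, a fit without the trend, separate fits, a t-test, the FC rule of 3, the replicate number as a block and fits that each lacked 1 array. The setting without both Btg1 KO replicate 1 arrays was added after the data were examined. The number of arrays limits the precision.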

Additional observations from a re-analysis of the deposited data

Results flagged for a closer look

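PPAT and PAICS were noted because their starved arrays lay on opposite sides of the untreated arrays in the 2 genotypes. For PAICS the starved arrays were the higher ones in Btg1 KO cells and the lower ones in WT cells, and the difference in response was 1.14 (unadjusted p = 0.00622, adjusted p = 0.708 from limma). For PPAT the order was the same and the difference was 0.40 (unadjusted p = 0.0599, adjusted p = 0.775 from limma). Without the untreated Btg1 KO replicate 1 array the PPAT change in Btg1 KO cells was 0.04 and its difference in response 0.22. The difference was tested by limma and passed for neither gene. With 2 arrays a group, the test for a single array far from its group was not applied.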

How the results depend on the processing

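Of 736 recomputed values of the 8 genes, none of which was called in the main fit, 733 stayed uncalled and 3 gained a call. Among the uncalled values 22 changed sign. Settings that alter only the test or the filter leave the size of a change as it was. With a mean of 5 or more in every group, 1 member was called in the response of WT cells (PAICS, adjusted p = 0.0470 from limma), where 2935 of 6885 rows were called. The other 2 gained calls, PPAT and UMPS in untreated Btg1 KO minus WT cells, came without Btg1 KO untreated replicate 2. That fit left 1 untreated Btg1 KO array, so its calls are not read as results. No member gained a call in the other fits that lacked 1 array. The median of the 8 genes in untreated Btg1 KO minus WT cells was -0.41, and -0.22 without Btg1 KO untreated replicate 1. The number of all rows called there was 84, 0 without the intensity trend and 1 when only the compared arrays were fitted. The methods' t-test called 0 members and, after Benjamini-Hochberg adjustment, 0 or 1 rows per comparison. The median response of Btg1 KO cells was 0.14 and fell below 0, to -0.05, without Btg1 KO untreated replicate 1.

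The replicate numbers were not taken as pairs: the replicate differences correlated at 0.118 and 0.243 between treatments and at 0.0766 and 0.105 between genotypes. The Y-linked EIF2S3Y on both WT replicate 2 arrays and the macrophage markers on both Btg1 KO replicate 1 arrays are hints from the data, not the labels, that a number marks 1 source within a genotype. With the replicate number as a block, 0 members were called in every comparison, and rows called were 424 rather than 84 for untreated and 572 rather than 285 for starved Btg1 KO minus WT cells. With a block within each genotype 0 members were called, and 3 rather than 0 rows for the difference in response, 2486 rather than 1990 for the response of Btg1 KO cells and 3628 rather than 3138 for that of WT cells.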
